A study of Oryza sativa with 12 samples.

Results

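In rice roots, the effect of spermidine on a transcript was measured without salt and under salt, and the results below concern the transcripts for which those effects differed. The difference is called the interaction: the log2 change with spermidine under 100 mM NaCl minus the log2 change with spermidine without NaCl. It was estimated in 1 fit of all 12 libraries for the unigenes (clusters of assembled transcripts) whose best protein hit in the NR database was from an Oryza species. The deposited table held 182689 unigenes, of which 68051 had such a hit, and 41491 of these had a mean of at least 1 FPKM and were tested. FPKM is a count of fragments divided by transcript length and by the size of the library.

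The 12 libraries came from poly-A RNA of wild-type Oryza sativa roots, in 4 groups of 3. The untreated group has no stated time, and the other groups were treated for 72 hours: spermidine at 0.1 mM, NaCl at 100 mM, or these doses together. Cultivar and plant age are not in the labels. The libraries of a group carry numbers, but no label says that they are separate plants or cultures, so the p-values reflect the spread between libraries only, and that spread may be technical.

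Spermidine is a polyamine, a small molecule with several positive charges that plants make from putrescine and that binds nucleic acids, membranes and acidic proteins. Polyamines accumulate in many plants under stress, and polyamines given from outside have been studied as a way to lessen salt injury. Salt acts on roots in an early osmotic phase and a later ionic phase, signalled through calcium, protein kinases, abscisic acid and jasmonate to transcription factors of the AP2/ERF, WRKY, NAC, MYB and bHLH families. In a design with both treatments, an interaction of 0 means that the log2 effects of spermidine and salt add. A positive interaction means that spermidine raised the transcript more, or lowered it less, under salt than without it, and a negative interaction the reverse.

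FPKM summed to 1312574 to 1371599 per library, rice hits held 73.5% to 81.6% of that sum, and the relative depth read from low values was 0.886 to 1.04. The read counts behind the values, and so the depth of each library, are unknown. Root markers (root-specific RCc3-like proteins, silicon transporters, SCARECROW and SHORT-ROOT) summed to 11643 to 16474 FPKM in all libraries. Shoot markers (chlorophyll-binding, photosystem and Rubisco proteins) summed to 44.5 to 72.3 FPKM in 10 libraries, 188 in spermidine library 1 and 340 in NaCl library 3. None of the 52 shoot markers, 38 root markers or 20 organelle-encoded genes with a rice hit was at 0 in all libraries. Of these, 26, 33 and 8 had a mean of at least 1 FPKM and were tested. Organelle-encoded genes summed to 43.2 to 56.3 FPKM in the NaCl libraries and to 106 to 265 in the other 9. Spermidine libraries 1 and 2 and spermidine+NaCl library 1 shared raised levels of the genes that were most abundant with NaCl. Values without these 3 libraries are given beside the results they moved most. Leaving them out keeps only spermidine library 3 and spermidine+NaCl libraries 2 and 3 in their groups. The 3 libraries were picked for their deviation in these data, so the spread within groups can fall by that choice alone. Adjusted p-values and counts without them are descriptions and support no call. Whether the material of these libraries matches their labels could not be checked from the files. In bulk roots, fewer cells of a type and less RNA per cell cannot be told apart.

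For a large share of the transcripts, the estimated effect of spermidine differed between roots with and without salt. Untreated roots enter every interaction and have no stated time, so a difference in time could not be told apart from the treatments. Of the 41491 rice-hit unigenes tested, 5968 (14.4%) had an interaction at an adjusted p below 0.05, 2838 higher (6.84%) and 3130 lower (7.54%). Without salt, spermidine changed 16 unigenes (0.0386%) at the same threshold, and under salt it changed 9464 (22.8%). The median interaction was 0.85 among unigenes called higher and −1.88 among those called lower, against 0.18 over all tested. Interactions reached 5.81 in the positive direction and −9.91 in the negative direction, and 755 of the lower group but 15 of the higher group were at least 3 in size. Of the called unigenes, 4221 had an informative description, and these carried 2636 distinct descriptions, 1458 among the higher and 1366 among the lower. Unigenes that share a description can come from 1 gene or from several, so the number of genes behind the calls is not known.

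The split between the directions depended on the scaling. As deposited, 47.6% of the called unigenes were higher, and after median-ratio scaling 25.7% were, with 1249 higher and 3609 lower. That scaling moved the median interaction of all tested unigenes from 0.18 to 0.02. Other scalings moved the split the other way. With the rice-hit FPKM brought to an equal total in each library, 54.6% were higher, 3670 against 3051 lower. After quantile normalization, 50.6% were higher, 3231 against 3154 lower. With the p-values adjusted over all unigenes of the table, 2213 rice-hit unigenes were higher and 2814 lower. Without the 3 libraries named above, 1583 were higher and 2474 lower, and 3413 of these were also called, in the same direction, with all libraries.

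**Figure D1:**
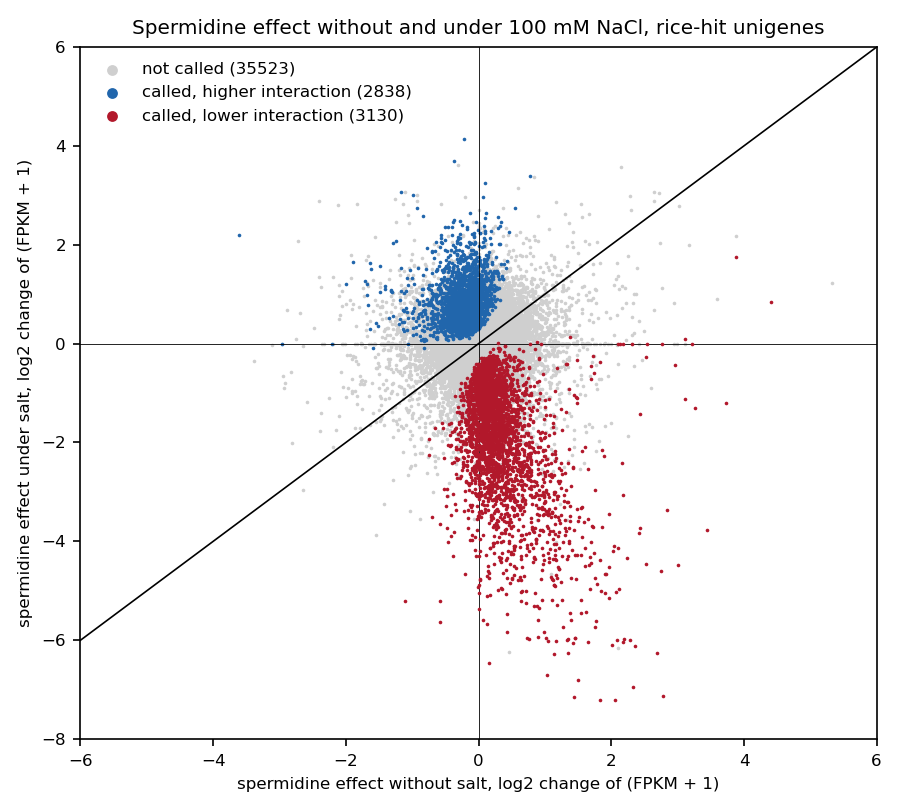
Log2 change of (FPKM + 1) with spermidine without salt (x) and under 100 mM NaCl (y) for 41491 rice-hit unigenes, each a point, with the diagonal marking equal effects. The 2838 unigenes with a called higher interaction lie above the diagonal and the 3130 called lower lie below it, reaching an interaction of −9.91.

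The interaction was carried mostly by the group given NaCl alone. For each unigene, a group was counted as standing apart when the gap between its mean and the nearest other mean was larger than the range of the other 3 means. NaCl stood high in 2849 of the 3130 unigenes called lower (91.0%), and NaCl stood low in 1762 of the 2838 called higher (62.1%). Among all tested unigenes these shapes made up 12.5% and 22.4%. In the called unigenes where NaCl stood high, the median log2 change with salt was 2.0 without spermidine and −0.01 with it. In those where NaCl stood low, the medians were −0.93 and 0.00. The small changes with salt in the presence of spermidine are largely fixed by how the shapes were defined.

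Other shapes were less frequent. The roots given spermidine and salt stood high in 190 called unigenes and low in 41. The untreated roots stood high in 66 and low in 25, and the roots given spermidine alone stood high in 22 and low in 35. No group stood apart in 978. These shapes use the same group means as the interaction and are a description of it.

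**Figure D2:**
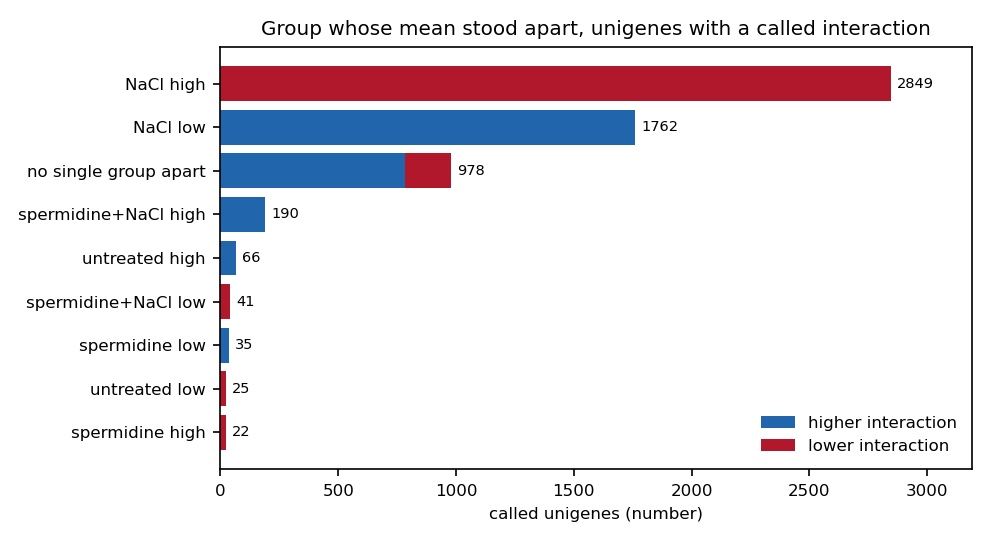
Number of unigenes with a called interaction (x) by the group whose mean stood apart from the other 3 (y), with higher interactions in blue and lower ones in red. NaCl high (2849) and NaCl low (1762) are the longest bars, and each other group stands apart in 190 unigenes or fewer.

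The most negative interactions belonged to transcription factors that were abundant with NaCl alone. ERF109 (Cluster-52034.47205), an ethylene-response factor of the AP2/ERF family, was at 0.22, 1.47 and 0.24 FPKM in the untreated libraries, 27.8, 24.9 and 0.64 with spermidine, 1620, 989 and 1258 with NaCl, and 114, 0.92 and 2.36 with both. All NaCl libraries were above all others, spermidine libraries 1 and 2 and spermidine+NaCl library 1 were above the remaining ones, and the spermidine and spermidine+NaCl groups overlapped. The interaction was −9.91 ± 2.03 (SE, 3 libraries per group, adjusted p = 0.00914). It was −9.04 without those 3 libraries, where 1 spermidine library was left. bHLH35 (Cluster-52034.45453), a basic helix-loop-helix factor, was at 1.07, 1.15 and 1.14 FPKM untreated, 19.98, 15 and 1.06 with spermidine, 722, 590 and 523 with NaCl, and 11.1, 1.07 and 1.72 with both. Its NaCl libraries again lay above all others, with spermidine libraries 1 and 2 next, and its interaction was −9.28 ± 1.16 (adjusted p = 0.00056). WRKY71, a factor of the WRKY family known in rice from defence and gibberellin responses, was at 3.15, 3.54 and 4.74 FPKM untreated, 34.5, 28.0 and 2.25 with spermidine, 874, 780 and 749 with NaCl, and 66.0, 4.20 and 4.29 with both. The same 3 libraries stood between the NaCl group and the rest, and the interaction was −7.68 ± 1.45 (adjusted p = 0.006).

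The other unigenes among the 12 most negative were the ethylene-response factors ERF110 and ERF4, the cold- and drought-response factors DREB1C, DREB1G and DREB1H, the jasmonate repressor TIFY 11e, zinc finger protein 36, WRKY28 and the copper protein uclacyanin 1. Their interactions ran from −8.59 for DREB1G to −7.33 for DREB1C. In 11 of the 12, spermidine libraries 1 and 2 and spermidine+NaCl library 1 all lay above every other library not given NaCl alone. That ordering held for 1332 of all unigenes tested (3.21%), for 897 of the 3130 called lower (28.7%) and for 3 of the 2838 called higher. The reverse ordering, with the 3 libraries lowest among those not given NaCl alone, held for 561 of all tested. It held for 87 of those called higher and 2 of those called lower. Without the 3 libraries, the interaction of DREB1H was −7.19. DREB1H and TIFY 11e lost their calls when any single library other than spermidine 3 or spermidine+NaCl 1 was left out. What the 3 libraries share is not given in the labels, and its part in these values was not tested.

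**Figure D3:**
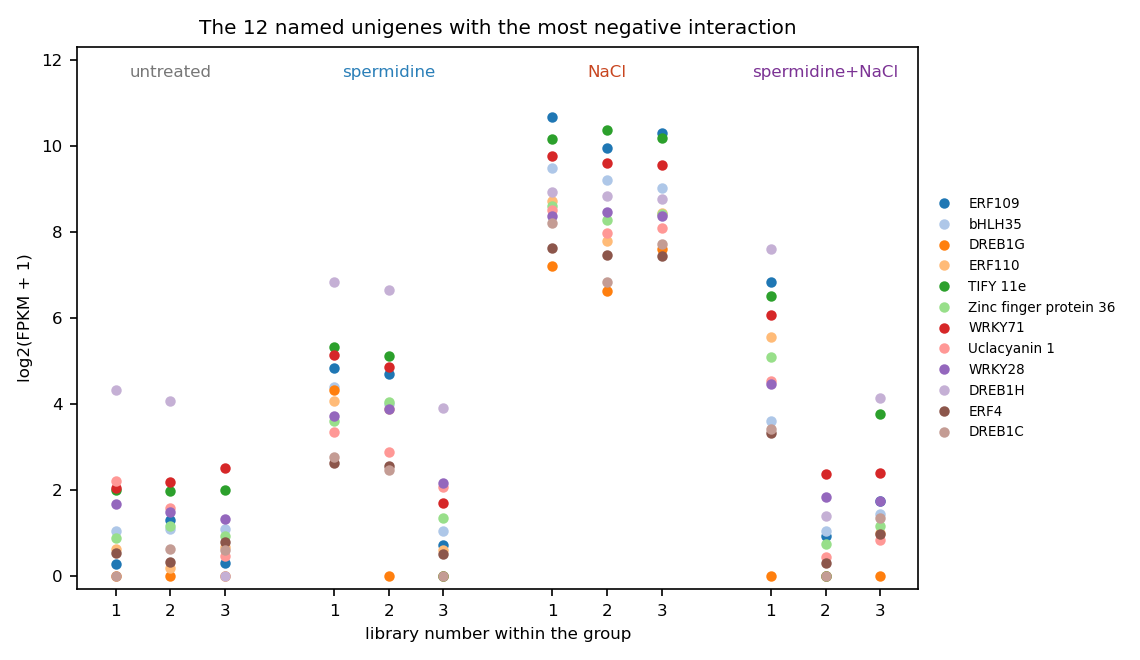
Level as log2(FPKM + 1) (y) of the 12 named unigenes with the most negative interaction, in each of the 12 libraries (x), 1 colour per unigene. The NaCl libraries are highest for every unigene, and spermidine libraries 1 and 2 and spermidine+NaCl library 1 lie between them and the rest for 11 of the 12.

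Families of these regulators held many called unigenes, most of them in the lower direction. Lists were formed from words in the protein descriptions, and their counts carry no test of their own. The WRKY list, plant factors named for a conserved motif and known for roles in defence and stress, had 66 lower and 9 higher of 153 tested. Its median interaction was −0.78, and its median log2 change with salt alone was 0.96. Of 176 AP2/ERF and DREB factors, 56 were lower and 11 higher, with a median interaction of −0.31, and of 152 NAC factors 35 were lower and 9 higher. Beside these counts stand 7.54% lower and 6.84% higher over all tested unigenes. MYB factors had 27 lower and 28 higher of 193, which became 30 and 19 after median-ratio scaling. bHLH factors had 22 lower and 19 higher of 147, bZIP factors 11 and 4 of 62, and C2H2 zinc fingers 10 and 8 of 46. Without the 3 libraries, 62 WRKY, 44 AP2/ERF and 33 NAC unigenes were lower and 6, 9 and 1 higher, MYB factors had 25 lower and 17 higher, and bZIP factors 6 and 4. Of all 41491 tested unigenes, 2474 were lower and 1583 higher without the 3 libraries, and 3609 and 1249 after median-ratio scaling. List counts under these settings, here and below, are to be read beside those totals.

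Abundant members showed the size of these differences. NAC domain-containing protein 2 was at 881 to 1298 FPKM with NaCl, 23.0 to 273 with both treatments, 56.3 to 159 with spermidine and 50.5 to 60.9 untreated, with an interaction of −4.82 ± 1.0 (adjusted p = 0.00986). MYB30, a factor tied to defence and lipid pathways in Arabidopsis, had an interaction of −6.95 ± 1.40 (adjusted p = 0.00847), and its NaCl libraries at 421 to 479 FPKM did not overlap the others, which reached 91.0. BHLH148, which takes part in the jasmonate response of rice, had −7.06 ± 1.34 (adjusted p = 0.00626). WRKY24 was less extreme, at 667 to 738 FPKM with NaCl and 64.5 to 238 elsewhere, with an interaction of −3.47 ± 0.60 (adjusted p = 0.00372).

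Not all lower unigenes followed the 3 libraries, as the ordering above held for 897 of the 3130. The 6 lower unigenes with the smallest adjusted p had 3 low groups that lay close together. A ranking by p favours unigenes with little spread within groups, so these 6 do not stand for the lower unigenes at large. Cystathionine gamma-synthase 1, the enzyme that opens methionine synthesis, was at 62.6, 38.0 and 43.3 FPKM with NaCl and at 0.10 or less in the other 9 libraries, 6 of which were listed at 0. Putative germin-like protein 2-1, of a family of cell wall proteins, was at 72.3, 51.5 and 53.6 FPKM with NaCl and at 0.45 or less elsewhere. For both, the other 9 libraries did not separate by group, and the interactions were −5.64 ± 0.25 and −5.80 ± 0.28 (adjusted p = 1.11e-05 for each).

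Calmodulin-binding protein 60 B, of a family that links calcium to defence transcription in Arabidopsis, was at 77.3, 77.8 and 71.8 FPKM with NaCl. It was at 4.03 to 4.61 untreated, 3.54 to 5.33 with spermidine and 6.16 to 6.39 with both. The roots given spermidine and salt were above all libraries without salt, and the NaCl libraries were far above all of these. The interaction was −3.41 ± 0.17 (adjusted p = 1.11e-05). CIPK9, a protein kinase activated by calcineurin B-like calcium sensors, was at 85.1, 70.3 and 63.9 FPKM with NaCl and at 6.93 to 8.23 in all other libraries, with an interaction of −3.09 ± 0.16. NETWORKED 4A, an actin-binding membrane protein, and the ubiquitin ligase RHG1A completed the 6, with −3.25 ± 0.17 and −2.42 ± 0.13.

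Several signalling lists held more lower than higher calls. Of 306 calcium signalling unigenes, 78 were lower and 12 higher, and of 111 MAP kinase cascade unigenes, 37 were lower and 1 higher. MPK5, a stress-activated MAP kinase of rice, was at 218, 177 and 174 FPKM with NaCl and at 45.2 to 58.1 in all other libraries, with an interaction of −1.83 ± 0.14 (adjusted p = 4.9e-05). Its 3 other groups overlapped. The unigene described as MAP kinase kinase kinase 17 was at 658 to 985 FPKM with NaCl, and its spermidine+NaCl libraries were at 245, 6.53 and 23.8 (interaction −6.48 ± 1.52, adjusted p = 0.0176). Receptor kinases had 173 lower and 70 higher of 1165, or 190 and 31 after median-ratio scaling, and their median interaction was −0.01. Protein phosphatases 2C had 39 lower and 11 higher of 190, with a median of 0.01. When the 3 libraries were left out, calcium signalling had 60 lower and 7 higher, MAP kinases 25 and 0, receptor kinases 128 and 36, and protein phosphatases 2C 35 and 4. Respiratory burst oxidases, which make superoxide at the plasma membrane, had 4 lower and 1 higher of 24, with homologs B and C at −1.22 ± 0.15 and −1.10 ± 0.14.

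The jasmonate list, with the lipoxygenases that start jasmonate synthesis and the TIFY repressors that jasmonate removes, had 35 lower and 2 higher of 85 and a median interaction of −0.26. TIFY 10a was at 798, 693 and 785 FPKM with NaCl, 103 to 112 with spermidine, 50.7 to 80.1 untreated and 80.7 to 199.6 with both. The NaCl libraries were above all others, and the spermidine group lay above the untreated group. Its interaction was −3.46 ± 0.39 (adjusted p = 0.000322). Cytochrome P450 94C1, which in Arabidopsis oxidises the active jasmonate conjugate, was at 455 to 553 FPKM with NaCl and at 3.58 to 17.4 elsewhere, with an interaction of −6.73 ± 0.67 (adjusted p = 0.00016). The 2 higher members included allene oxide synthase 4, at 0.74.

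The abscisic acid list had called members in both directions. Of 63 tested members, 16 were lower, 7 were higher and 40 were not called. Abscisic acid 8′-hydroxylase 1, which breaks the hormone down, was at 292 to 405 FPKM with NaCl and at 23.9 to 90.8 elsewhere, with an interaction of −3.30 ± 0.47 (adjusted p = 0.00127). The kinase SAPK2, which acts downstream of the receptors, had −0.94 (adjusted p = 0.00101). The receptors PYL4 and PYL5 went the other way. PYL4 was at 789, 719 and 749 FPKM untreated, 680, 722 and 608 with spermidine, 277, 216 and 258 with NaCl, and 501, 477 and 576 with both. The NaCl libraries were below all others and those given both treatments lay between them and the libraries without salt, and the interaction was 1.22 ± 0.15 (adjusted p = 0.000599). PYL5 had 1.49 ± 0.15 (adjusted p = 0.000173).

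Among ethylene synthesis genes, 6 were lower and 5 higher of 38. 1-aminocyclopropane-1-carboxylate (ACC) synthase 1 was at 84.4 to 103 FPKM with NaCl and at 5.58 to 25.8 elsewhere, with an interaction of −3.61 ± 0.65 (adjusted p = 0.00476). ACC synthase 7, another enzyme of the same step, was at 7.69 to 9.08 FPKM with NaCl and at 13.6 to 23.4 elsewhere, with 1.08 ± 0.25 (adjusted p = 0.0165).

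Polyamine synthesis also had called members. Of 19 tested unigenes of the pathway, 7 were lower (36.8%, against 7.54% of all tested), none was higher and 12 were not called, with a median interaction of 0.00. There were 5 lower and none higher without the 3 libraries. The 7 were ornithine decarboxylases, arginine decarboxylase 1 and S-adenosylmethionine decarboxylases, the enzymes that commit carbon and aminopropyl groups to polyamines. The most abundant called S-adenosylmethionine decarboxylase (Cluster-52034.76799) was at 98.9, 99.4 and 91.6 FPKM untreated, 130, 138 and 91.7 with spermidine, 395, 333 and 362 with NaCl, and 202, 84.1 and 99.7 with both. The NaCl libraries were above the others, with spermidine+NaCl library 1 next, and the interaction was −1.88 ± 0.38 (adjusted p = 0.0089). Arginine decarboxylase 1 (Cluster-52034.73530) was at 175 to 190 FPKM with NaCl and at 72.8 to 106 elsewhere, with −0.90 ± 0.17 (adjusted p = 0.00659). A unigene of ornithine decarboxylase, chosen after its values were seen, went from 4.41 ± 1.40 FPKM (SD) untreated and 5.01 ± 0.32 with spermidine to 23.9 ± 2.22 with NaCl and 9.04 ± 1.15 with both (interaction −1.5 ± 0.24). The synthases that add the aminopropyl groups, spermidine synthase 1 and 3 spermine synthases, had interactions of 0.00 to 0.27 and adjusted p-values of at least 0.152. A further pair of S-adenosylmethionine decarboxylase unigenes, described after their values were seen, had 0.23 and 0.31 and was not called, so unigenes of the same description differed.

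Of 46 genes tested for polyamine oxidation, conjugation and uptake, 5 were lower (10.9%) and 3 higher (6.52%), shares near the 7.54% and 6.84% of all tested, and 3 were lower and 1 higher without the 3 libraries. Putrescine hydroxycinnamoyltransferase 3 makes conjugates of putrescine with phenolic acids and was at 119, 115 and 114 FPKM with NaCl and at 8.55 to 20.5 elsewhere, and it had an interaction of −2.84 ± 0.27 (adjusted p = 0.000117). Its paralogs 1 and 2 went in the opposite direction, with 1.17 (adjusted p = 0.0126) and 0.77 (adjusted p = 0.0267), but missed the threshold without the 3 libraries (adjusted p = 0.0523 and 0.0647). The call for paralog 2 also needed untreated 3, spermidine 3, NaCl 1 and spermidine+NaCl 2. Reads shared between such paralogs make single values uncertain.

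Metabolic, defence and wall genes were also among the called ones. Trehalose-phosphate phosphatase 1, which makes the sugar trehalose, was at 203, 179 and 150 FPKM with NaCl and at 4.58 to 12.2 elsewhere, with an interaction of −5.16 ± 0.38 (adjusted p = 3.61e-05). It belongs to a list of osmolytes and stress sugars with 17 lower and 5 higher of 78, or 15 and 1 without the 3 libraries. Phenylpropanoid and lignin genes had 49 lower and 13 higher of 232, or 44 and 7 without those libraries. Phenylalanine ammonia-lyase, the entry enzyme, was at 556 to 663 FPKM with NaCl, 231 to 285 with both treatments, 167 to 183 with spermidine and 134 to 176 untreated. The group given both treatments lay between NaCl and the libraries without salt, without overlap, and the interaction was −1.43 ± 0.16 (adjusted p = 0.000307). Pathogenesis-related proteins and chitinases had 58 lower and 11 higher of 302, and cellulose synthase and COBRA-like proteins 11 lower and 1 higher of 60. COBRA-like protein 11 had −4.59 ± 0.72 (adjusted p = 0.00205). LEA proteins and dehydrins, which protect cells from water loss, had 4 lower and none higher of 25, and dehydrin DHN1 had −1.46 ± 0.34 (adjusted p = 0.017). Phosphate transport genes had 4 lower of 41 (9.76%), a share near that of all tested, and none higher.

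**Figure D4:**
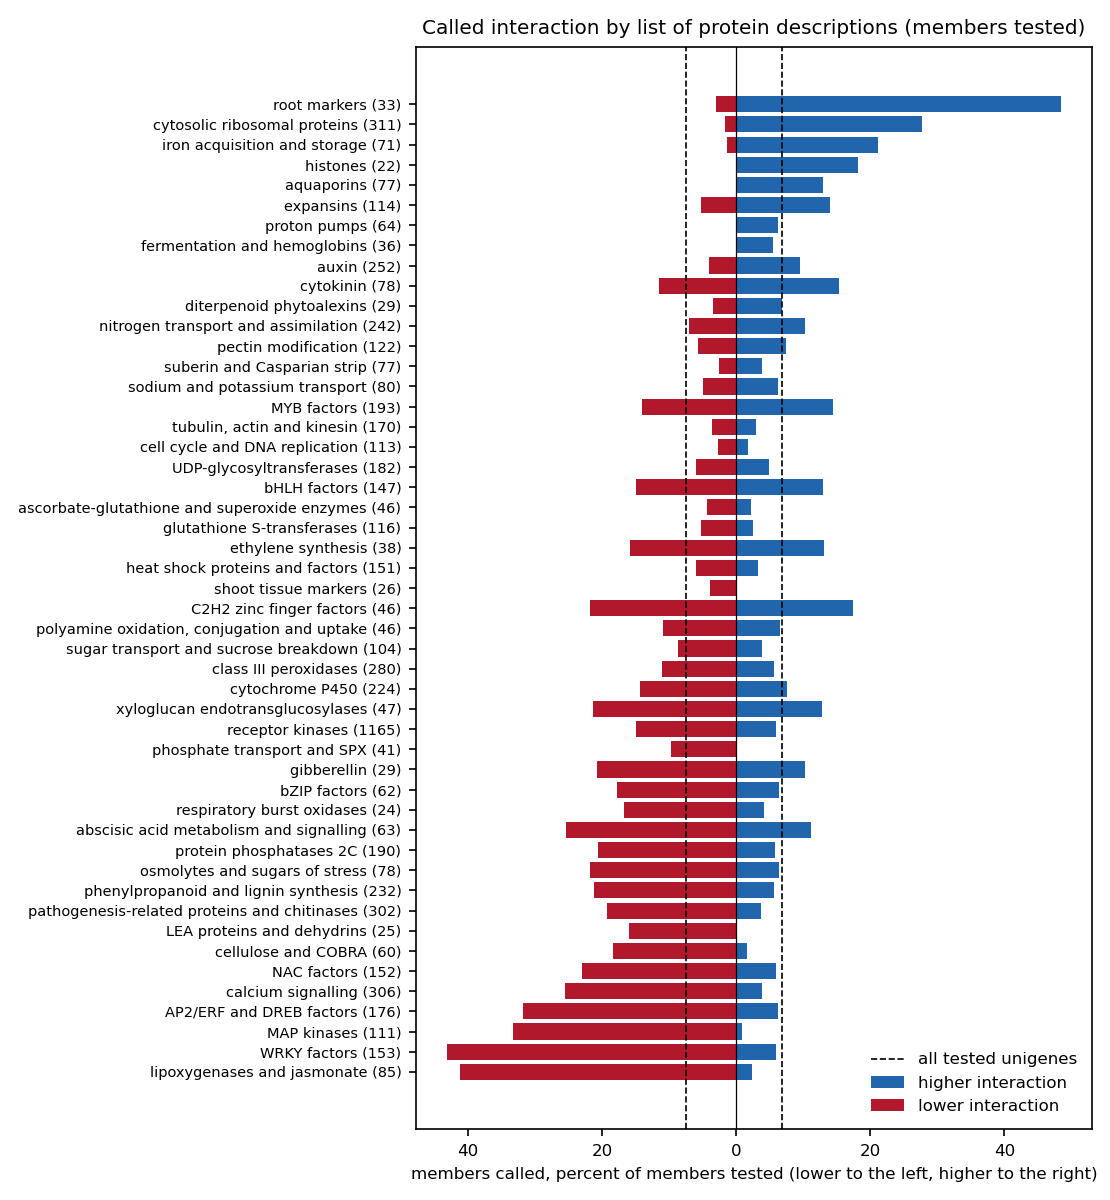
Share of members with a called interaction (x, percent of members tested, lower to the left and higher to the right) for each list of at least 20 tested unigenes (y, number tested in parentheses), with dashed lines at 7.54% lower and 6.84% higher for all tested unigenes. WRKY, jasmonate, MAP kinase and AP2/ERF lists reach farthest to the left, and root markers, cytosolic ribosomal proteins and iron genes farthest to the right.

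In the opposite direction stood transcripts that were scarce with NaCl alone. Phosphoenolpyruvate carboxylase kinase 2, or PPCK2 (Cluster-52034.77889), the kinase that activates the carboxylase feeding organic acids, was at 241, 232 and 281 FPKM untreated, 194, 198 and 182 with spermidine, 31.4, 28.1 and 33.7 with NaCl, and 155, 184 and 185 with both. The NaCl libraries lay far below the rest, and the spermidine and spermidine+NaCl groups overlapped. The interaction was 2.84 ± 0.14 (adjusted p = 1.11e-05). PPCK genes were among the shoot markers first considered and are not in the shoot marker sum. GLUTAMINE DUMPER 2, a membrane protein that promotes amino acid export, was at 81.3, 66.3 and 74.5 FPKM untreated, 58.5, 60.6 and 63.1 with spermidine, 4.91, 5.39 and 7.22 with NaCl, and 38.1, 39.4 and 33.2 with both. Its 4 groups did not overlap, and the interaction was 2.76 ± 0.18 (adjusted p = 2.28e-05).

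RAP2-13 and ERF057 were among the 11 AP2/ERF unigenes called higher. RAP2-13 was at 766, 756 and 722 FPKM untreated, 726, 715 and 717 with spermidine, 164, 176 and 181 with NaCl, and 474, 531 and 584 with both. The group given both lay between NaCl and the libraries without salt, and the interaction was 1.66 ± 0.11 (adjusted p = 2.48e-05). ERF057 had 1.67 ± 0.26 (adjusted p = 0.00217). Zinc finger protein ZAT5 was described for unigenes of both directions, at 1.5 ± 0.25 and −7.1 ± 1.47, so a description alone does not give the direction.

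Kinases and phosphatases also had members of this kind. CIPK4 was at 110, 92.3 and 96.5 FPKM untreated, 84.4, 78.6 and 86.0 with spermidine, 12.5, 13.2 and 14.04 with NaCl, and 48.9, 91.3 and 92.8 with both. Here spermidine+NaCl library 1 lay between the NaCl libraries and all others, and the interaction was 2.67 ± 0.28 (adjusted p = 0.000228). Protein phosphatase 2C 12 (Cluster-52034.68761) was at 36.4 to 47.6 FPKM with NaCl, 156 to 229 with both, 254 to 284 with spermidine and 297 to 363 untreated, with 2.47 ± 0.21 (adjusted p = 6.65e-05), and a further unigene of that description had 2.78 ± 0.44. F-box protein At1g67340, a part of a ubiquitin ligase, had 2 such unigenes at 4.07 ± 0.48 and 2.22 ± 0.16. ERD15, a small protein of drought and abscisic acid responses, and alanine aminotransferase 2 were among the 6 higher unigenes with the smallest adjusted p, at 1.42 ± 0.09 and 1.39 ± 0.10.

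**Figure D5:**
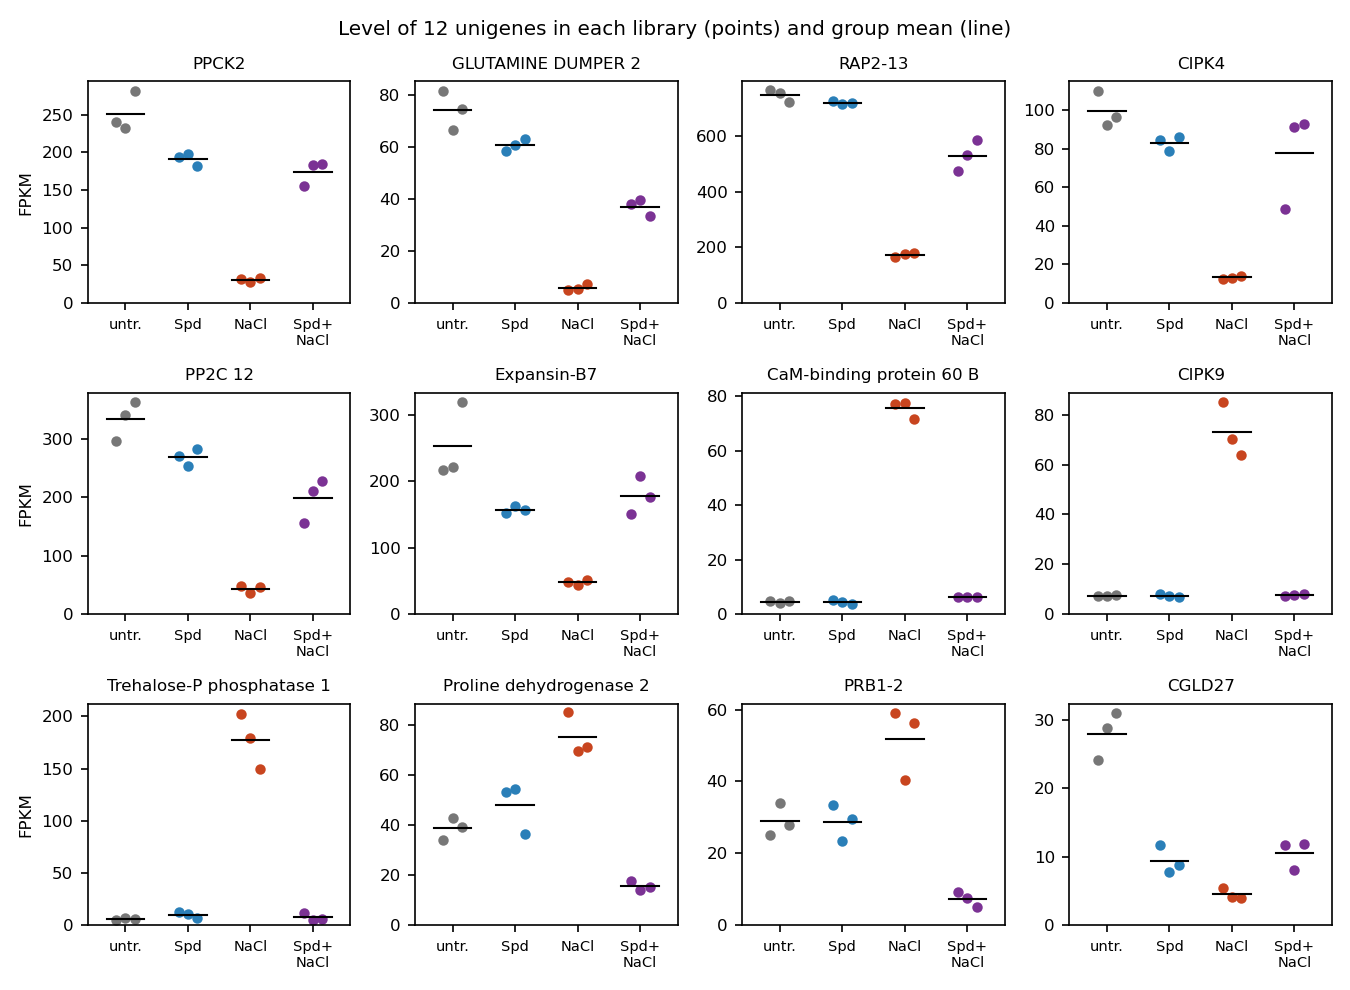
FPKM (y, linear from 0) of 12 named unigenes in the 3 libraries of each group (points) with the group mean (line); Spd is spermidine and untr. is untreated. The first 6 are lowest with NaCl alone, the next 3 are highest with it, proline dehydrogenase 2 and PRB1-2 are lowest with both treatments, and CGLD27 is highest in untreated roots.

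The expansin and auxin lists held more higher than lower calls with the deposited scaling. Expansins, which loosen the wall, had 16 higher and 6 lower of 114, which became 8 and 7 after median-ratio scaling and 13 and 1 without the 3 libraries. Expansin-B7 was at 216, 222 and 320 FPKM untreated, 152, 163 and 156 with spermidine, 48.3, 43.8 and 51.0 with NaCl, and 150, 207 and 176 with both. The NaCl libraries were lowest, and the groups with spermidine overlapped. Its interaction was 2.53 ± 0.22 (adjusted p = 6.75e-05). Expansin-A19 went the other way (−2.2 ± 0.57, adjusted p = 0.0279), and was at 33.1 to 48.7 FPKM with NaCl and 23.7 to 43.2 with both. The groups with salt overlapped, so most of this interaction lay in the change with spermidine without salt. The call of Expansin-A19 was kept only without untreated 3, spermidine 2, NaCl 2 or spermidine+NaCl 2 when single libraries were left out. The auxin list had 24 higher and 10 lower of 252, which became 12 and 11 after median-ratio scaling. Its higher share of 9.52% and its median of 0.19 were near the 6.84% and 0.18 of all tested. The auxin-induced SAUR41 had 1.58 ± 0.19 (adjusted p = 0.000483).

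Cytosolic ribosomal proteins had 86 higher and 5 lower of 311. Their median interaction was 0.46 against 0.18 over all tested, made of a median change with spermidine of −0.16 without salt and 0.29 under salt. An abundant called member was ribosomal protein L32-1, at 0.49 ± 0.13 (adjusted p = 0.0346), which was at 803 to 924 FPKM with both treatments, 646 to 720 with NaCl, 555 to 690 with spermidine and 656 to 736 untreated. Here the group given both treatments lay above the other 3, which overlapped, and the call was lost after median-ratio scaling (adjusted p = 0.169) and without the 3 libraries (0.146). It was kept only without untreated 2, spermidine 2, NaCl 2 or spermidine+NaCl 3 when single libraries were left out. The count depended on the scaling: 9 were higher and 4 lower after median-ratio scaling. There were 139 and 5 with equal rice-hit totals, and 166 and 5 after quantile normalization, against 3670 and 3231 higher of 41491 tested. After median-ratio scaling, the higher share was near that of all tested unigenes (1249 of 41491). The median interaction was then 0.28, against 0.02 over all tested. Without the 3 libraries, these medians were 0.49 and 0.17. Histones had 4 higher and none lower of 22, or 2 and 1 after median-ratio scaling. They had 7 higher with equal rice-hit totals and 10 after quantile normalization.

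Iron acquisition and storage genes had 15 higher and 1 lower of 71, with a median of 0.45, or 4 and 2 without the 3 libraries. Nicotianamine synthase 1, which makes the precursor of the iron-binding mugineic acids of grasses, was at 2082, 2819 and 3102 FPKM untreated, 2017, 2197 and 2229 with spermidine, 866, 1156 and 1135 with NaCl, and 1975, 1273 and 2454 with both. The NaCl libraries were below all others, with spermidine+NaCl library 2 next, and the interaction was 1.11 ± 0.32 (adjusted p = 0.0436). Without the 3 libraries its adjusted p was 0.263, the highest over all alternatives, and leaving out any single library other than untreated 1 or spermidine+NaCl 2 also ended the call. Deoxymugineic acid synthase 1-D, a later enzyme of the path, was the lower member (−2.87, adjusted p = 0.000111).

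Aquaporins, the channels for water and small solutes, had 10 higher and none lower of 77, or 4 and none without the 3 libraries. Aquaporin PIP1-1 was at 216 to 230 FPKM with NaCl, 294 to 321 with both treatments, 263 to 276 with spermidine and 274 to 301 untreated, with an interaction of 0.54 ± 0.09 (adjusted p = 0.0028). NIP2-1, the silicon influx channel of rice roots, had unigenes at 0.45 ± 0.13 and 2.90 ± 0.75, each called (adjusted p = 0.0463 and 0.0276) but not without the 3 libraries (adjusted p = 0.322 and 0.137). The first of these calls was kept only without spermidine 3 or NaCl 1 when single libraries were left out, and the second needed untreated 1 and 2, spermidine 2 and 3 and spermidine+NaCl 2 and 3. Root markers, which include NIP2-1 and the silicon efflux transporter LSI3, had 16 higher and 1 lower of 33 and a median of 0.54, or 10 and 2 without the 3 libraries. Their summed level was lowest in the spermidine group, which did not overlap the other 3 groups, with 11643 to 13139 FPKM for spermidine, 13475 to 14516 for untreated roots, 13522 to 14758 for NaCl and 14339 to 16474 for both treatments. The sum weights abundant members most and does not show the change of the typical member. Over the 33 tested, the median log2 change was −0.84 with salt alone and −0.18 with spermidine alone. With spermidine under salt the median was 0.43. Shoot markers had a median interaction of −1.35, with 1 lower and 0 higher of 26. Without the 3 libraries, this median was −0.77 and none was called. NaCl library 3 had the highest shoot marker sum, at 340 FPKM. The part of cell composition in these differences was not tested.

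Nitrogen genes had 25 higher (10.3%) and 17 lower (7.02%) of 242, beside 6.84% and 7.54% of all tested. Their median interaction was 0.18, against 0.18 over all tested, and the counts became 12 and 18 after median-ratio scaling. The transporters NRT1/PTR FAMILY 5.10 and 5.15 had 1.33 ± 0.16 and 1.34 ± 0.14, and FAMILY 8.1 had −4.29 (adjusted p = 0.000428). NADH-ubiquinone oxidoreductase chain 1, an organelle-encoded subunit of respiratory complex I, was at 14.4 to 27.7 FPKM with NaCl, 69.6 to 162 with both and 122 to 207 without salt, with 2.26 ± 0.45 (adjusted p = 0.00811). It was the only called member of 8 on its list.

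A small set had its extreme where both treatments were given. Proline dehydrogenase 2, the mitochondrial enzyme that degrades proline, was at 34.0, 42.8 and 39.1 FPKM untreated, 53.3, 54.2 and 36.3 with spermidine, 84.9, 69.7 and 71.1 with NaCl, and 17.7, 14.1 and 15.1 with both. The group given both lay below all others and the NaCl group above them, and the interaction was −2.48 ± 0.23 (adjusted p = 9.64e-05). Salt raised it by 0.94 ± 0.16 without spermidine and it fell by 1.54 ± 0.16 with salt when spermidine was present. PRB1-2, a pathogenesis-related protein, was at 4.92 to 9.18 FPKM with both treatments, 40.4 to 59.0 with NaCl, 23.3 to 33.4 with spermidine and 24.98 to 34.0 untreated. It had the same order of groups, and an interaction of −2.70 ± 0.31 (adjusted p = 0.000349). The ubiquitin ligase PUB22 and the BTB/POZ and TAZ domain protein 1 were the next in this class, at −2.64 ± 0.62 and −1.94 ± 0.39, and PUB22 missed the threshold without the 3 libraries (adjusted p = 0.0821).

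Where both treatments stood high, the differences were moderate. Tyrosine aminotransferase was at 13.0, 17.6 and 13.3 FPKM with both, 4.87 to 5.62 with NaCl, 1 to 5.34 with spermidine and 2.89 to 9.99 untreated. Its group given both lay above the other 3, and the interaction was 2.33 ± 0.59 (adjusted p = 0.0259), or 0.0622 without spermidine+NaCl library 2. The call was kept only without untreated 1, spermidine 1 or 2, or spermidine+NaCl 1 when single libraries were left out. The calmodulin-like protein CML17 (1.94 ± 0.49), peroxidase 43 (1.25 ± 0.28) and SRC2 (1.16 ± 0.24) completed the 4 largest of this class. Without the 3 libraries, CML17 and peroxidase 43 missed the threshold (adjusted p = 0.128 and 0.0546), and CML17 also without untreated 1 or 2, spermidine 1 or 2, or NaCl 2 or 3.

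In a few unigenes the untreated or the spermidine roots stood apart. CGLD27, a chloroplast protein, was at 24.1, 28.8 and 31.0 FPKM untreated, 11.7, 7.80 and 8.74 with spermidine, 5.48, 4.11 and 3.97 with NaCl, and 11.7, 7.99 and 11.8 with both. Untreated libraries were above all others and NaCl libraries below, and the interaction was 2.54 ± 0.26 (adjusted p = 0.000188). It was 1 of the 13 called unigenes for which spermidine also changed the level without salt, by −1.49 (adjusted p = 0.0373). A unigene described as the AP2-like factor ANT was at 5.32 to 10.7 FPKM untreated and listed at 0 in the other 9 libraries. Its interaction was 2.96 ± 0.34 (adjusted p = 0.000325). Each single treatment was already at 0, so the combined treatment could not be lower. This interaction is therefore only the untreated level on the log2 scale, and a spermidine effect under salt could not be seen. Spermidine alone was highest for a beta tubulin, at 8.62 to 14.6 FPKM against 0 to 2.52 elsewhere (−4.23 ± 0.66), and for ribosomal protein L10a (−3.57 ± 0.76, adjusted p = 0.011, and 0.0719 without the 3 libraries).

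For CGLD27, the effects of spermidine without salt and under salt were opposite and both passed the test, with 1.05 ± 0.19 under salt (adjusted p = 0.00251). Among called unigenes that met the conditions for naming, 161 had estimates of opposite sign and of at least 1 in size. The 6 with the largest pairs were ERF109, ERF110, DREB1H, ANTAGONIST OF LIKE HETEROCHROMATIN PROTEIN 1, peroxidase 10 and a translation initiation factor IF-2-like protein. Their changes with spermidine without salt were 2.36 to 2.999 with adjusted p-values of 0.443 to 0.697, so none of these effects without salt passed the test. In each of the 6, spermidine libraries 1 and 2, of the 3 libraries raised together, were above spermidine library 3. Leaving out single libraries ended the interaction call of ANTAGONIST OF LIKE HETEROCHROMATIN PROTEIN 1 for all but untreated 2, spermidine 3 and spermidine+NaCl 1 and 2, as did leaving out the 3 libraries (adjusted p = 0.0645). In peroxidase 10, spermidine gave 6.38, 16.6 and 1.8 FPKM where all untreated libraries were listed at 0, NaCl gave 36.5, 41.3 and 29.1, and both gave 5.59, 0 and 5.66. The NaCl libraries were above all others and the spermidine groups overlapped, and the interaction was −6.20 ± 1.05 (adjusted p = 0.00332).

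For several lists tied to salt tolerance, the share of called unigenes was near or under that of all tested unigenes. Sodium and potassium transport had 5 higher and 4 lower of 80, or 1 and 2 without the 3 libraries, with the root potassium channel AKT1 at 0.49 (adjusted p = 0.0274, or 0.0878 without the 3 libraries). AKT1 was at 115 to 142 FPKM with NaCl, 144 to 166 with both treatments, 247 to 257 with spermidine and 267 to 300.2 untreated. The groups with NaCl lay below those without, and the pair under salt did not overlap. The call was also lost after median-ratio scaling (adjusted p = 0.258) and was kept only without untreated 3, spermidine 2, NaCl 1 or spermidine+NaCl 1 when single libraries were left out. Proton pumps had 4 higher and none lower of 64, or 2 and none without the 3 libraries, and the enzymes of the ascorbate-glutathione cycle 1 higher and 2 lower of 46. Cell cycle and DNA replication genes had 2 higher and 3 lower of 113, suberin and Casparian strip genes 3 and 2 of 77, heat shock proteins and factors 5 and 9 of 151, glutathione S-transferases 3 and 6 of 116, and tubulin, actin and kinesin 5 and 6 of 170. With the 3 libraries left out, suberin and Casparian strip genes had 0 higher and 0 lower, glutathione S-transferases 0 and 5, and tubulin, actin and kinesin 1 and 3. Lists together held 6796 of the tested unigenes and 1487 of the 5968 called ones. No unigene described as bZIP73, the factor in the title of the series, was found (0 found), and it is not analysed here.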

How the data were processed

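RNA-seq of 12 root libraries was analysed from 1 table of FPKM values deposited by the authors. The submitters' processing notes name CASAVA 1.8, Bowtie2 and RSEM without saying what each did, and how the unigenes were assembled, annotated and filtered is not given in the sources used here. Every value column was mapped to a library. Rice hits were rows whose NR hit named an Oryza species, and no positions or sequences were used.

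Values were transformed as log2(FPKM + 1), which understates changes of low unigenes, and rows with a mean of at least 1 FPKM were kept. A model of 4 group means was fitted with limma 3.58.1 (R 4.3.3) and empirical Bayes variances following the mean. The interaction was tested two-sided, with Benjamini-Hochberg adjustment over the 41491 unigenes and unigenes were called below an adjusted p of 0.05. Log2 values are given ± SE and levels ± SD over 3 libraries. The steps were tested on simulated data. Without read counts, no counting intervals are given.

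Unigenes were named if called, at 5 FPKM or more in a group, of the same sign in all 81 combinations of 1 library per group, and with an informative description: the largest and smallest interactions, the lowest adjusted p, the largest of each shape, the largest opposite effects, and the most abundant called members of each list. This gave 226, of which the text gives a part, picked after the values were seen. The comparison, members and 51 lists were chosen with earlier results of these data known, and list words were corrected after the descriptions were seen; the marker lists are a part of those first chosen. A unigene is not a gene, and unigenes of the same gene or of paralogs can share reads. Alternatives were other pseudocounts, filters, scalings and variance models, a replicate block, and leaving out each library.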

Additional observations from a re-analysis of the deposited data

Results flagged for a closer look

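The effect of spermidine differed between roots with and without salt, by the test of the interaction itself, in 2838 unigenes called higher and 3130 called lower. The interactions of the 6 unigenes with the largest opposite-sign estimates of the spermidine effect, picked by those estimates, were ERF109 at −9.91, ERF110 at −8.48, DREB1H at −7.47, ANTAGONIST OF LIKE HETEROCHROMATIN PROTEIN 1 at −7.00, peroxidase 10 at −6.20 and the IF-2-like protein at −6.18 on the log2 scale. None of their effects without salt passed the test. DREB1H and ANTAGONIST OF LIKE HETEROCHROMATIN PROTEIN 1 missed the threshold without spermidine library 1 (highest adjusted p = 0.0992 and 0.0811).

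Unigenes without an Oryza hit, which the report leaves out, also gave calls: 2125 of 24345 in the fit of all unigenes. Groups of 3 libraries are too small for a test of single outlying libraries.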

How the results depend on the processing

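No unigene called with the deposited scaling and log2(FPKM + 1) was called in the opposite direction under any alternative (0 called opposite), and of the 226 named unigenes 133 lost their call under none of the alternatives in which they were tested; 212 were tested at a mean of at least 5 FPKM. The number of unigenes called higher moved most: 1249 with median-ratio scaling and 1583 without spermidine libraries 1 and 2 and spermidine+NaCl library 1 together, an alternative chosen after seeing the data. Leaving out 1 library gave 1701 to 2801 higher and 2461 to 3408 lower. The count of higher calls fell by over 1.5 times without untreated library 1 (1891) or 3 (1878), spermidine library 1 (1701), NaCl library 1 (1738) or 3 (1883), or spermidine+NaCl library 2 (1804) or 3 (1788); the cause was not tested. All other alternatives gave 2192 to 3670 higher, and all alternatives 2306 to 3609 lower. Same-numbered libraries did not deviate together (correlations of −0.127 to 0.111, 5 of 12 libraries correlating best with their own number), and the replicate block gave 2311 higher and 2986 lower. Serine carboxypeptidase II-2, peroxidase 52 and TIFY 11e, among the largest interactions, reached adjusted p-values of 0.192, 0.23 and 0.139. FPKM without counts leaves the depth behind low values unknown.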
